A study of Mus musculus with 6 samples.

Results

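Of 37553 merged regions of open chromatin, 608 (1.62%) carried a peak in both normal-glucose libraries and in none of the 3 high-glucose libraries when every library was held to a list of the same length. These 608 normal-glucose-only regions were found by ranking each library's peaks on chromosomes 1 to 19, X and Y by their deposited −log10 p. The first 22149 were kept, which is the length of the shortest list, and peaks that overlapped by at least 1 bp were merged. The regions were thus selected on the presence and absence of these ranked peaks, and their number and −log10 p describe the choice and test nothing. The rule turned round, with a peak in all 3 high-glucose libraries and in neither normal-glucose library, gave 359 regions (0.956%). That version asks for presence in more libraries and absence from fewer, so the counts are not like measures.

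The cells were atrioventricular cushion mesenchymal cells of the mouse, an immortalised line from an H- 2Kb-tsA58 transgenic strain, used at passage 6. In that strain the H-2Kb promoter drives a temperature-sensitive SV40 large T antigen, which cells of both conditions carry. The high-glucose libraries (HG1, HG2 and HG3) came from cells kept for 48 h in 25 mM glucose, and the normal-glucose libraries (NG1 and NG3) from cells kept for 48 h in 5.5 mM glucose, the concentration in which the line is maintained. Each was an ATAC-seq library of 54000 cells read as 50 bp pairs. The labels do not say whether the replicates were separate cultures, and no osmotic control is among the samples analysed here. A further normal-glucose library, NG2, had 52 peaks on the chromosomes used and did not enter the rule. Of those 52 peaks, none overlapped a normal-glucose-only region and none a high-glucose-only region, while all 52 fell in regions present in the other 5 libraries.

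ATAC-seq inserts sequencing adapters where a transposase can reach the DNA, so that promoters, enhancers and other nucleosome-depleted sites appear as peaks. Active promoters, many of them rich in CpG, are usually open in most cell types and give the strongest peaks. Open sites within genes and between them differ more between cell types and include many enhancers. Endocardial cushion mesenchyme forms from endocardial cells in the early heart and gives rise to valves and septa.

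Few of the normal-glucose-only regions lay over a gene's start. The sequences below show the starts of protein-coding genes that such a region covered, where no high-glucose library had any peak within 1 kb of either end of the gene and the nearest high-glucose peak was more than 1000 bp from the region. Of 10 genes that met this, the 6 with the highest percentiles in their weaker normal-glucose library are shown. Each line gives the 150 bases upstream of the start, written 5′ to 3′ on the gene's own strand, from the RefSeq promoter table for GRCm38.p6, whose coordinates are those of mm10. Capitals mark the bases that lay inside the normal-glucose-only region.
Zfp442, chr2:150451502-150451651, minus strand: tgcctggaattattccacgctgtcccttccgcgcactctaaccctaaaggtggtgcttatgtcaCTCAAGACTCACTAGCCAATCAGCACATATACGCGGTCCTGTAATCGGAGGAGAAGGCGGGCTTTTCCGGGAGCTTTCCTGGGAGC
Abraxas2, chr7:132859075-132859224, plus strand: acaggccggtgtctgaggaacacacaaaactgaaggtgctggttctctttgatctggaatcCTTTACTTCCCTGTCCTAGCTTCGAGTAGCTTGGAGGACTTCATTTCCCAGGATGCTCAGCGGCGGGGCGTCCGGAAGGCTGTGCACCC
Snapc4, chr2:26380654-26380803, minus strand: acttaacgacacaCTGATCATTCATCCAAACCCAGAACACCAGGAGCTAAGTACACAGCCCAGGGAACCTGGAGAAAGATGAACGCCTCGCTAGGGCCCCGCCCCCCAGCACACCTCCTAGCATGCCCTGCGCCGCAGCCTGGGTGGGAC
Mrpl33, chr5:31613801-31613950, plus strand: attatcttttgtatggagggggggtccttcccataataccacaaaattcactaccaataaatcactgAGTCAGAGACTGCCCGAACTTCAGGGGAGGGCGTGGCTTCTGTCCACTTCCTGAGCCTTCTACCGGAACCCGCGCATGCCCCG
Selenop, chr15:3270827-3270976, plus strand: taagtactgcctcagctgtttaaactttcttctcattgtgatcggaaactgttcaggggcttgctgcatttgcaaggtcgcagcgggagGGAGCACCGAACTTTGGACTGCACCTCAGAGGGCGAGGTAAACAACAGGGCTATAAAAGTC
Mbip, chr12:56345895-56346044, minus strand: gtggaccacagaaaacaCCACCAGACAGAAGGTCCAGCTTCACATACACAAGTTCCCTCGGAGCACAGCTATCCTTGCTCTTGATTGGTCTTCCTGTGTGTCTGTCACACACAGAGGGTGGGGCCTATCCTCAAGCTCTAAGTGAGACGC

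The region over Zfp442, a zinc finger gene, ran from −86 to +37 relative to the start and had a −log10 p of 14.4 in NG1 and 16.9 in NG3. The nearest high-glucose peak on the equal lists was 88600 bp away. In the text that follows, a percentile is the share of a library's own full list that ranked below the peak. The weaker library of a region is the one with the lower percentile. Kept peaks reach down to percentile 8.68 in NG1 and 45.1 in NG3, whose full list is longer, so percentiles of NG1 and NG3 are not on the same scale. The Zfp442 peaks stood at percentile 75.6 in NG1 and 76.9 in NG3. Abraxas2 encodes a scaffold subunit of a deubiquitinase complex, and the region over its start stood at percentile 48.9 in NG1 and 60.2 in NG3. Snapc4 encodes the largest subunit of the complex that starts transcription of small nuclear RNA genes, and its region reached from −137 to +51, with a −log10 p of 9.24 in NG1 and 11.2 in NG3. Mrpl33, a gene of the mitochondrial ribosome, had a region from −83 to +25 at percentile 46.2 in NG1 and 48.8 in NG3, which is near the end of the NG3 list kept here. Selenop encodes a secreted selenium carrier, and its region had a −log10 p of 8.94 in NG1 and 12.2 in NG3. The Mbip region, over the start of a gene for a subunit of a histone acetyltransferase complex, was the strongest of all 608 in NG3, with a −log10 p of 25.4 and percentile 89.5, but stood at percentile 36.3 in NG1.

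Short motifs were searched on either strand in the window of 250 bases before to 50 after each listed start. CCAAT was found at −71 to −67 of Zfp442 and at −67 to −63 of Mbip, inside the capitals in both. It was also found at −97 to −93 of Mrpl33, outside the region. The ETS core CCGGAAG lay at −18 to −12 of Abraxas2, −1 to +5 of Snapc4 and −3 to +3 of Mrpl33. All these ETS matches were inside the regions. GGGCGG lay at −52 to −47 of Snapc4, inside the region. The AP-1 heptamer TGANTCA lay at −85 to −79 of Mrpl33, across the edge of the region. In Mrpl33 the GATA motif TTATCT lay at −149 to −144, outside the region. The motif ACGTCA lay at +9 to +14 of Mbip, inside the region. None of the 11 motifs was found in the window of Selenop.

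Most normal-glucose-only regions were modest peaks. Their −log10 p in NG1 had a median of 8.39 and ranged from 6.05 to 16.9, and in NG3 the median was 11.4 with a range of 9.57 to 25.4. Regions present in all 5 libraries had medians of 14.1 in NG1 and 21.7 in NG3. As percentiles of the full lists, the normal-glucose-only regions had medians of 35.8 in NG1 and 57.6 in NG3. By rank on the equal lists, counted from the strongest peak, the medians were 15562 in NG1 and 17112 in NG3. The regions thus did not stand higher in NG3 than in NG1. Of the 608, 446 lay below the median of the kept peaks in both normal-glucose libraries and 15 lay above it in both. Deposited fold enrichments had medians of 5.43 in NG1 and 7.24 in NG3, against 8.68 and 11.7 for the regions in all 5 libraries. The 359 high-glucose-only regions sat low in their own lists too, with median percentiles of 30.0 in HG1, 38.8 in HG2 and 31.8 in HG3.

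**Figure D1:**
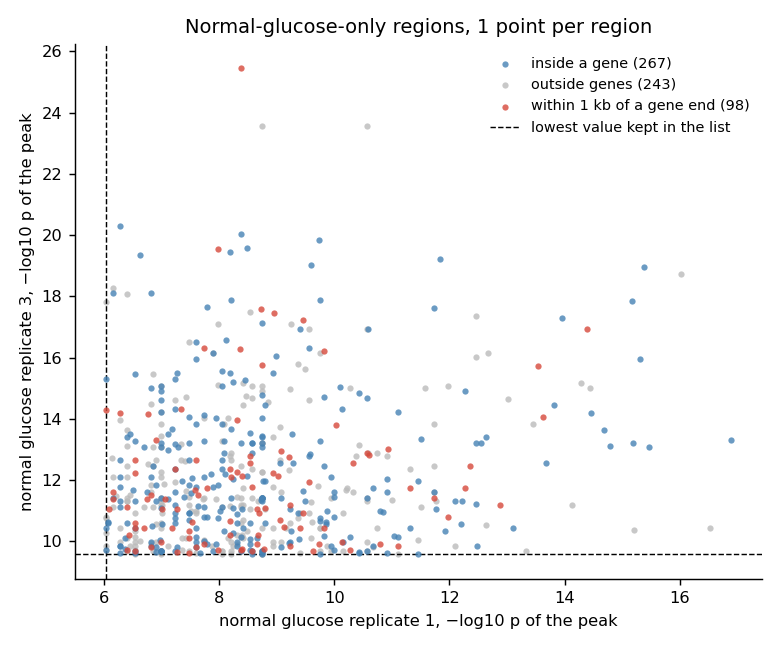
Deposited −log10 p of the peak in NG1 (horizontal axis) and NG3 (vertical axis) for each of the 608 normal-glucose-only regions, coloured by position relative to protein-coding genes, with dashed lines at the lowest value kept in each list. Points crowd towards the lines, with medians of 8.39 in NG1 and 11.4 in NG3, and red gene-end points are spread among the others.

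A region strong in one normal-glucose library was often ordinary in the other. Across the 608 regions the −log10 p of NG1 and NG3 had a Pearson r of 0.160 and a Spearman coefficient of 0.113, against 0.777 and 0.678 across the 11319 regions present in all 5 libraries. These are descriptions across regions of the same pair of libraries, and the rule keeps the normal-glucose-only regions to a narrow range of values. Gli1, the zinc finger effector of Hedgehog signalling, held a region inside the gene (chr10:127339976-127340136) at percentile 14.4 in NG1 and 81.7 in NG3. Flt4, the receptor for vascular endothelial growth factors C and D, held one (chr11:49631292-49631404) at percentile 8.98 in NG1 and 72.8 in NG3. The gap between the NG1 and NG3 summits had a median of 20 bp and a maximum of 202 bp, which the overlap of peaks and the width of the regions bound. The regions were narrow, with a median of 158 bp and a range of 88 to 449 bp. The medians were 197 bp for the high-glucose-only regions and 325 bp for those in all 5 libraries. A region spans the merged peaks of every library that holds it. Regions held by more libraries thus tend to be wider by construction, and the widths are not like measures.

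Absence from the high-glucose libraries was absence from the first 22149 peaks. HG2 listed 2864 further peaks below that rank and HG3 listed 440, while HG1 had none. Of the 608 regions, 81 (13.3%) overlapped one of those weaker HG2 peaks and 11 (1.81%) a weaker HG3 peak, and 89 (14.6%) overlapped either. The other 519 (85.4%) had no high-glucose peak in any full list. The HG2 peaks involved had a −log10 p of 4.01 to 6.35 with a median of 5.62. Regions with and without such a peak stood at similar percentiles, with medians of 36.8 and 35.4 in NG1 and of 57.7 and 57.6 in NG3. The mirror case differed, because 290 of the 359 high-glucose-only regions (80.8%) overlapped a peak of NG3 below rank 22149, where NG3 listed 18193 further peaks, and 56 (15.6%) one of NG1. Depth is unknown, since the lists hold no read counts, so whether a site lacked a peak through low depth or low signal cannot be told apart.

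At the edge of the rule, regions differed little in value. The weakest NG1 peaks that counted had a −log10 p of 6.05 at ranks 22134, 22130 and 22113, and the strongest of those left out had 6.05 at ranks 22158 and 22174. In NG3 ranks 22139 and 22163 fell on either side with a −log10 p of 9.57. Ties at that value were broken by chromosome name, and 103 of 167 tied peaks were kept in NG1 and 88 of 161 in NG3.

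The normal-glucose-only regions lay mainly away from the ends of genes. Of the 608, 98 (16.1%, 95% Wilson interval 13.4 to 19.3) were within 1 kb of either end of a protein-coding gene, called a gene end here because the gene annotation used to place regions gave no strand for most genes. A further 267 (43.9%, 40.0 to 47.9) were elsewhere inside a gene, 198 (32.6%, 29.0 to 36.4) outside genes but within 100 kb of one, and 45 (7.40%) farther away. At a gene end were 136 of the 359 high-glucose-only regions (37.9%, 33.0 to 43.0), 57.8% of those in all 5 libraries and 33.6% of all merged regions. The separate promoter table lists stranded starts for 79.9% of protein-coding genes, and for other genes. Within 1 kb of a listed start were 77 normal-glucose-only regions (12.7%, 10.3 to 15.5), against 35.9% of high-glucose-only regions and 55.5% of regions in all 5 libraries. A listed transcription start was covered by 37 normal-glucose-only regions (6.09%, 4.45 to 8.28), against 18.1% of high-glucose-only regions and 46.7% of regions in all 5 libraries. The intervals cover counting error over regions, which are not replicates, and exons, introns and untranslated regions were not annotated.

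**Figure D2:**
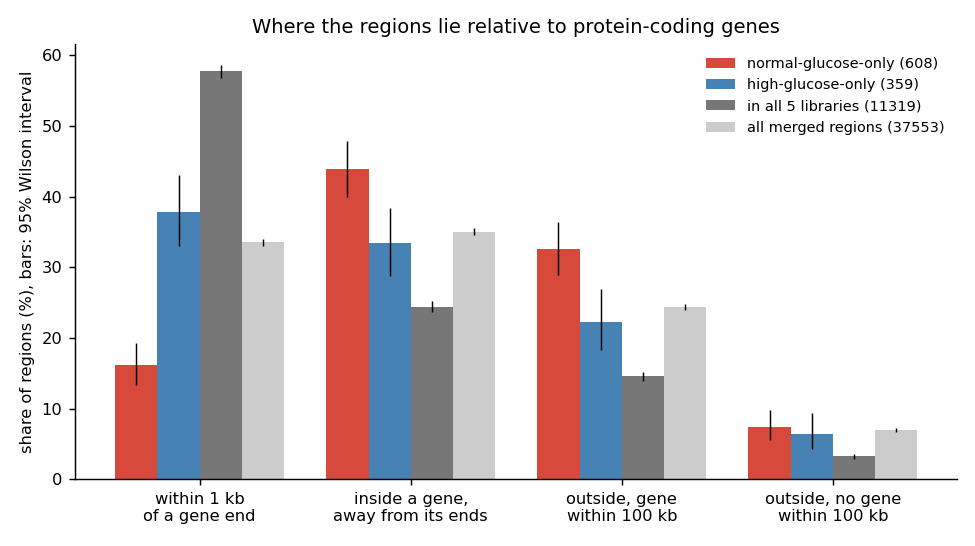
Share of regions, in percent, by position relative to protein-coding genes, for normal-glucose-only regions, high-glucose-only regions, regions in all 5 libraries and all merged regions, with 95% Wilson intervals as error bars. Gene ends held 16.1% of the normal-glucose-only regions and 37.9% of the high-glucose-only ones.

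Of the NG3 peaks, 41.8% of those kept but 32.2% of the full list lay at a gene end, so the share goes with rank, and peaks of like rank were set beside the regions. Among the 304 normal-glucose-only regions within the interquartile range of their own NG1 percentiles, 53 (17.4%, 13.6 to 22.1) were at a gene end, against 1855 of the 6290 NG1 peaks in that range (29.5%, 28.4 to 30.6). In NG3 the counts were 55 of 304 (18.1%) and 1649 of 6040 (27.3%). The share changed little with strength among the normal-glucose-only regions themselves, at 17.2%, 15.8% and 15.3% in the highest, middle and lowest of 3 bands of strength. For the high-glucose-only regions the shares were 35.2% (28.6 to 42.4) against 28.8% in HG1, 36.9% (30.1 to 44.1) against 30.4% in HG2 and 36.3% (29.6 to 43.6) against 30.6% in HG3, each interval including the share of the like-ranked peaks. The share of normal-glucose-only regions was below that of high-glucose-only regions in 19 of 19 settings run, the main one included. The gap was 8.35 percentage points when HG3 was left out and 38.0 with lists of 10000 peaks. These settings reuse the same lists and are not independent. The rules for the sets also ask for peaks in unlike numbers of libraries. With equal numbers per condition the shares were 16.9% and 35.7% without HG1, 18.4% and 31.3% without HG2, and 20.6% and 28.9% without HG3.

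High-glucose peaks were often near. The median distance from a normal-glucose-only region to the nearest high-glucose peak on the equal lists was 9797 bp, and 123 regions (20.2%) had one within 1000 bp while 81 (13.3%) had none within 50 kb. From the high-glucose-only regions to the nearest normal-glucose peak the median was 10050 bp, with 27.0% within 1000 bp. The first distances are to the pooled peaks of HG1, HG2 and HG3, the second to those of NG1 and NG3. With unequal numbers of peaks to meet, the distances are not like measures. At gene ends 55 of 98 normal-glucose-only regions (56.1%) had a high-glucose peak within 1000 bp, against 68 of 510 elsewhere (13.3%). The regions were also scattered singly, and 53 of them (8.72%) had another normal-glucose-only region within 100 kb. As a share of merged regions they made up 2.40% on chromosome 12 (30 of 1249, 1.69 to 3.41) and 1.08% on chromosome 4 (26 of 2404, 0.739 to 1.58), with 7 on X and 0 of 2 on Y.

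**Figure D3:**
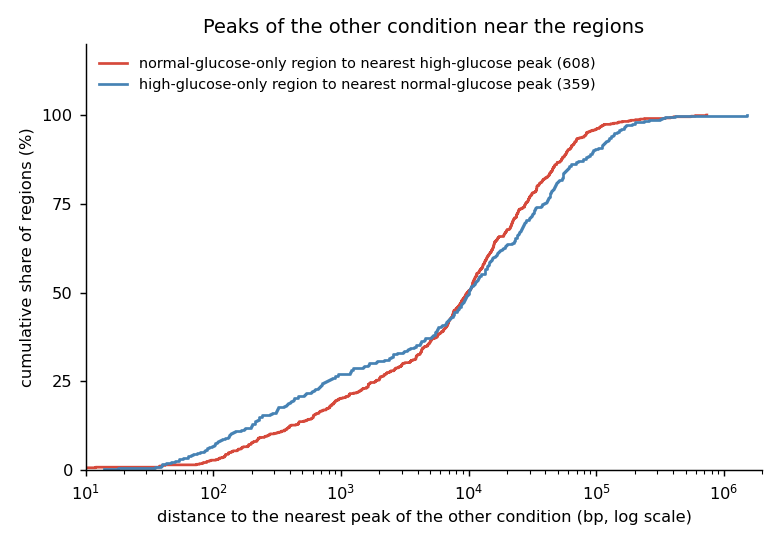
Cumulative share of regions by distance in bp, on a log axis, from normal-glucose-only regions to the nearest high-glucose peak and from high-glucose-only regions to the nearest normal-glucose peak. The medians were 9797 bp and 10050 bp. High-glucose peaks are pooled from HG1, HG2 and HG3, and normal-glucose peaks from NG1 and NG3.

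Gene ends with a normal-glucose-only region belonged to 118 of 21883 protein-coding genes (0.539%), and those with a high-glucose-only region to 165 (0.754%). For 54 of the 118 genes all 3 high-glucose libraries had a peak at an end of the gene on their full lists, for 35 genes 1 or 2 libraries had one, and for 29 none had. A counted peak can be a weaker one over the region itself. For Lhx3, Vamp8 and Phkg1 the region overlapped a weaker high-glucose peak, and HG2 had a gene-end peak on its full list only. The 29 include Srebf1, the transcription factor of fatty acid and sterol synthesis, and Cfd, the serine protease adipsin of the alternative complement pathway. They also include H2-Ab1 and H2-M5 of the major histocompatibility complex and Panx1, a membrane channel that releases ATP. A region within 1 kb of 2 genes counted for both. The Srebf1 region (chr11:60199762-60199926) stood at percentile 39.5 in NG1 and 55.5 in NG3, with a −log10 p of 8.67 and 11.1 and the nearest high-glucose peak 10422 bp away. It lay inside Srebf1 by its lower-coordinate end (the gene spans chr11:60199084-60224186). It was also within 1 kb of an end of the neighbouring Rai1, which had other gene-end peaks in HG1 and HG2. The region overlapped no window of a listed start of either gene, so it is not shown to lie at a start. H2-M5, a class Ib molecule whose family members share sequence, had its region (chr17:36997138-36997307) at percentiles 64.4 in NG1 and 57.8 in NG3. Apart from Srebf1 and H2-M5, these genes of the 29 were chosen after their values were seen.

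At the gene ends that ranked highest, high-glucose peaks usually stood close by. Second to Zfp442 was Cox19, an assembly factor for cytochrome c oxidase, whose region (chr5:139344164-139344281) stood at percentiles 72.6 in NG1 and 73.9 in NG3 with a high-glucose peak 786 bp away. Ralgps2 and Rasal2, which lie on the same stretch of chromosome 1, encode a Ral exchange factor and a Ras GTPase-activating protein. The Ralgps2 region (chr1:156938843-156939123) stood at 73.1 in NG1 and 68.9 in NG3 with a high-glucose peak 205 bp away, and that of Rasal2 (chr1:157412225-157412416) at 67.5 and 62.7 with one 38 bp away. Kank2, which links integrin adhesions to microtubules, had a high-glucose peak 276 bp from its region (chr9:21797982-21798154). Shb, an adaptor of receptor tyrosine kinase signalling, had one 109 bp away, and Mfsd3, a putative transporter, had one 542 bp away. The pair Mastl and Yme1l1, a mitotic kinase and a mitochondrial protease, shares 1 region (chr2:23156420-23156574), 167 bp from a high-glucose peak. The histone gene H4c8 overlapped a weaker HG2 peak at rank 22707 with a −log10 p of 6.12, and histone H4 genes are near-identical copies among which short reads can be split. Lrrn4cl and Vwa5a complete the 12, with high-glucose peaks at 190 and 609 bp.

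Inside genes, the 10 highest ranked regions lay in genes of varied function. Gata4, the zinc finger factor of cardiac and cushion development, held a region (chr14:63222212-63222440) with a −log10 p of 13.8 in NG1 and 14.4 in NG3, at percentiles 73.6 and 70.0. The nearest high-glucose peak was 22842 bp away. Sox5, a transcription factor of chondrocytes and neural crest, held one (chr6:144773079-144773252) at percentiles 76.5 in NG1 and 67.4 in NG3. Dot1l, the methyltransferase of histone H3 lysine 79, held one (chr10:80774641-80774875) at 76.0 and 69.3, with a high-glucose peak 1640 bp away. Efnb2, the ligand ephrin-B2 of arteries and endocardium, held one (chr8:8658932-8659078) at 74.2 and 77.6. Tmem108, a transmembrane protein studied in neurons, held one (chr9:103494460-103494629) at 78.0 and 78.8, and no high-glucose peak lay within 60008 bp of it. Susd1 (chr4:59366291-59366457) had the highest percentile in its weaker library among those inside genes, at 78.5 in NG1 and 81.0 in NG3, but overlapped an HG3 peak at rank 22186 with a −log10 p of 5.10. Ssh1, a cofilin phosphatase, and Dlg5, a scaffold of cell polarity, overlapped weaker HG2 peaks at ranks 23829 and 24726. Slc44a2, a choline transporter, and Dixdc1, a Wnt pathway protein that binds actin, complete the 10, at percentiles 78.4 and 66.9 in NG1 and 74.6 and 71.5 in NG3.

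Outside genes the highest ranked was near Fam110c (chr12:31052147-31052306), at percentile 80.3 in NG1 and 80.6 in NG3, with a high-glucose peak 4195 bp away. By the lower percentile it was the highest of all 608. By the poorer rank on the equal lists Susd1 stood higher, with 5223 in NG1 and 7655 in NG3 against 4772 and 7812. Other regions outside genes were nearest to Ywhah, a 14-3-3 protein, and to Soat2, which esterifies cholesterol. Still others were nearest to Rps14, a ribosomal protein, and to Cops8, of the COP9 signalosome. Near Ywhah (chr5:33033373-33033482) the region stood at percentile 75.6 in NG1 and 71.8 in NG3, and near Soat2 (chr15:102167727-102167869) at 75.2 and 72.5. The region near Cops8 (chr1:90519098-90519262) overlapped weaker peaks of both HG2, at rank 24013, and HG3, at rank 22515. Nearness to a gene does not say that a region acts on it.

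Of all protein-coding genes, 577 (2.64%) had a normal-glucose-only region inside or within 10 kb, and 12 of them had 2 and Tbc1d1 had 3. Tbc1d1 encodes a Rab GTPase-activating protein of insulin-stimulated glucose transporter traffic. Its 3 regions lay inside the gene (chr5:64196256-64196368, chr5:64282692-64282845 and chr5:64326470-64326627). They stood at percentiles 18.2, 18.9 and 21.3 in NG1 and 49.9, 55.5 and 67.1 in NG3, all below the NG1 median of the normal-glucose-only regions. Among genes with 2, chosen after their values were seen, was Rab31, a GTPase of the trans-Golgi network, with percentiles 26.4 and 53.3 in NG1 and 60.8 and 67.9 in NG3. The teneurin genes Tenm2 and Tenm3, which encode large cell adhesion proteins, also had 2 each inside long gene bodies.

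The gene lists held 549 different genes in 20 lists of heart cushion, signalling, metabolic, chromatin and cell type genes, and 17 of them (3.10%) had a normal-glucose-only region at an end or inside. Without the small GTPase and actin list, which earlier results of these data helped choose, it was 14 of 517 (2.71%). Over all protein-coding genes the share was 379 of 21883 (1.73%), and list genes and all genes differ in length, which was not tested. High-glucose-only regions touched 18 of the 549 list genes, against 284 of 21883 protein-coding genes (1.3%), so their share was also higher among list genes.

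**Figure D4:**
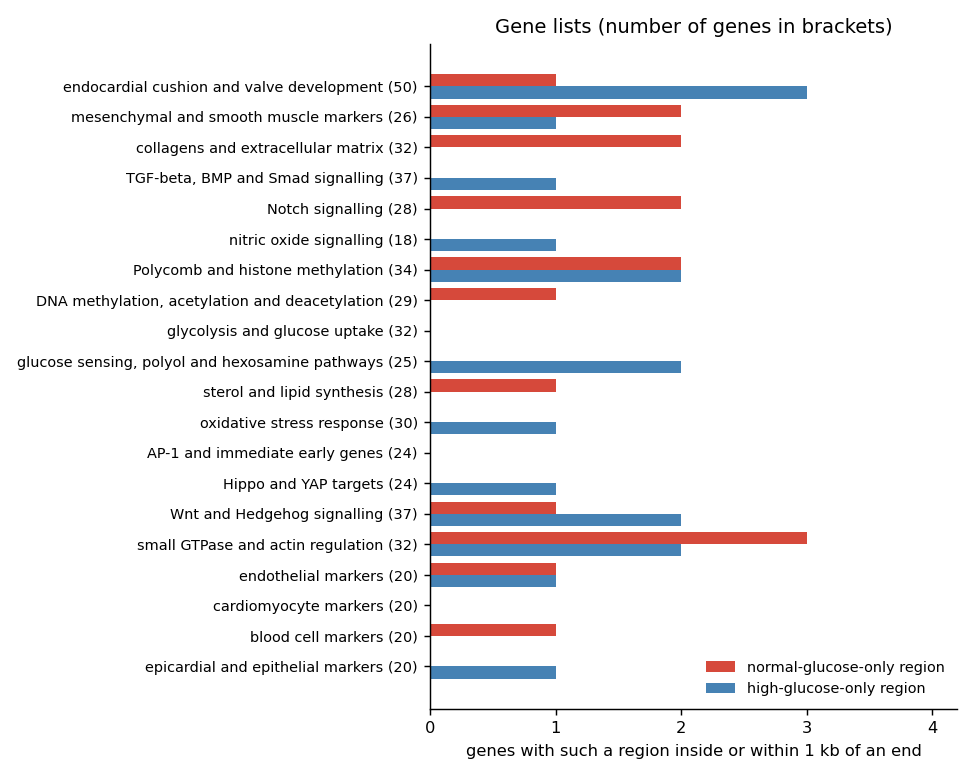
Number of genes of each list with a normal-glucose-only or a high-glucose-only region inside or within 1 kb of an end, with the list size in brackets. No list had more than 3 genes with either.

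Among the 50 cushion and valve genes Gata4 was the only one with a normal-glucose-only region at an end or inside, and 3 had a high-glucose-only region. Of the 26 mesenchymal and smooth muscle genes there were 2, Tagln, an actin-binding protein of smooth muscle, and Srf, which drives such genes. The Tagln region (chr9:45937038-45937196) stood at percentile 36.7 in NG1 and 48.3 in NG3, and all 3 high-glucose libraries had another peak at an end of the gene. It lay nearer to Sidt2, 661 bp away, a gene with no high-glucose peak at an end. The region inside Srf stood at 24.8 in NG1 and 58.2 in NG3, 172 bp from a high-glucose peak. Of the 32 collagen and matrix genes there were 2, Col4a2, a basement membrane collagen, at percentiles 46.0 in NG1 and 49.2 in NG3, and Fbn1, the microfibril protein fibrillin-1, at 15.9 and 48.8. Of the 28 Notch genes there were 2, Adam10, the protease that cleaves Notch receptors, at 56.9 in NG1 and 57.4 in NG3, and Maml2, a Notch coactivator, at 48.9 and 63.8.

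Among chromatin genes the lists held Dot1l, Kdm4b, a demethylase of histone H3 lysine 9, and Dnmt3a, which methylates DNA de novo. Kdm4b stood at percentile 34.8 in NG1 and 55.5 in NG3, and Dnmt3a at 17.3 and 48.4 with a high-glucose peak 190 bp away. The list of 32 small GTPase and actin genes had 3, Rasal2, Ralgps2 and Kank2, and its count supports nothing, given how that list was chosen. No gene of glycolysis and glucose uptake (32 genes), glucose sensing (25), oxidative stress (30), TGF-beta and BMP signalling (37), nitric oxide signalling (18), AP-1 (24) or Hippo (24) had a normal-glucose-only region at an end or inside. At this list size a count of 0 does not show that such genes differ from others.

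Cell type markers were read the same way on the equal lists. A peak at an end of the gene was shared by the 5 libraries for 12 of 16 cushion and mesenchymal markers. None of 8 endothelial and 8 cardiomyocyte markers had one in every library, and 7 of each had one in no library. Of 8 blood markers 1, Spi1, had such a shared peak, and of 8 epicardial and epithelial markers 2 had, Wt1 and Upk3b. The longer gene lists were more mixed. Of 26 mesenchymal and smooth muscle genes 11 had a shared gene-end peak and 11 had one in no library. Of 50 cushion and valve genes it was 24 and 13. Of 20 endothelial genes it was 0 and 15, and of 20 cardiomyocyte genes 2 and 16. For the 20 blood genes it was 1 and 17, and for the 20 epicardial and epithelial genes 3 and 10. Normal-glucose-only regions lay inside 1 gene of the 20-gene endothelial list, Flt4, and 1 of the 20-gene blood list, Ptprc, and in none of the cardiomyocyte or epicardial lists. The Ptprc region (chr1:138126974-138127112), in the gene of the leukocyte antigen CD45, stood at percentile 41.8 in NG1 and 58.1 in NG3, 202302 bp from any high-glucose peak.

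The promoter windows that normal-glucose-only regions overlapped were of middling base composition. The 50 such windows, of 48 genes, had a median GC content of 54.8% and a median of 12.5 CpG in 300 bases. Windows under high-glucose-only regions had 63.3% and 25 CpG (99 windows), those under regions in all 5 libraries 64.0% and 24, and all 32851 listed windows 52.7% and 7. GGGCGG was present in 48.0% of the windows under normal-glucose-only regions (34.8 to 61.5), against 70.7% under high-glucose-only regions, 76.1% under regions in all 5 libraries and 35.7% of all listed windows. TGANTCA was present in 10.0% (4.35 to 21.4), against 4.04%, 3.91% and 7.81%, and CCAAT in 44.0%, against 36.4%, 43.8% and 37.4%. CCGGAAG was present in 12.0%, against 16.2%, 21.7% and 8.86%. GTGGGAA, the RBPJ motif, was in 0 of the 50, against 6.06%, 5.39% and 6.38%, and 50 windows are too few to separate such shares. Of the 50 windows, 25 had a high-glucose peak within 1000 bp of the region.

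**Figure D5:**
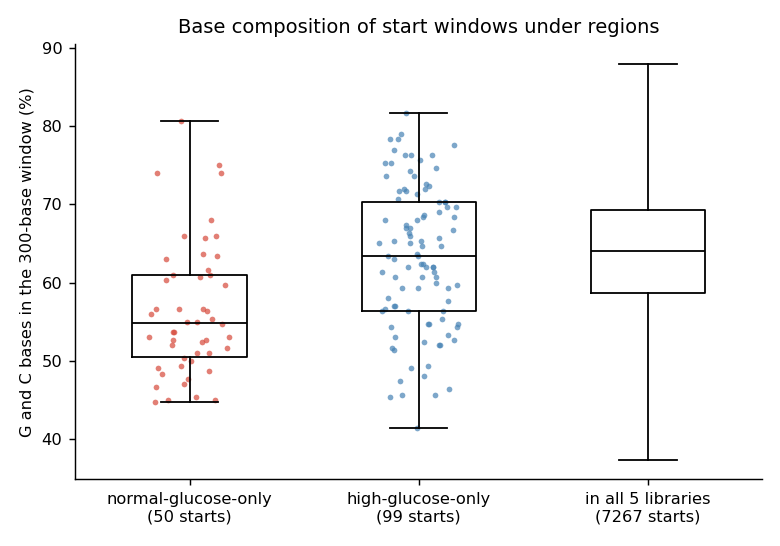
GC content in percent of the 300-base promoter windows overlapped by normal-glucose-only regions, by high-glucose-only regions and by regions in all 5 libraries, with boxes from the lower to the upper quartile, a line at the median, whiskers to the extremes and, for the first pair of sets, 1 point per window. Medians were 54.8%, 63.3% and 64.0%.

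The count of 608 depended on which libraries took part. Leaving out HG1, HG2 or HG3 gave 990, 1097 or 1031 regions, and leaving out NG1 or NG3 gave 2926 or 3425, since fewer libraries make the rule easier to meet. With HG1, HG2 or HG3 left out, the conditions have equal numbers of libraries. The high-glucose-only regions then numbered 872, 833 or 844. The next counts on the same ladder were 1283 regions with peaks in both normal-glucose libraries and 1 high-glucose library, 2345 with 2 and 11319 with all 3.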

How the data were processed

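ATAC-seq peak lists of 6 libraries, 3 of each glucose concentration, were read. Groups came from the labels. Per the submitters' processing notes, which give no roles or settings, the build was mm10 and the tools were MACS2 2.1.0, DiffBind 1.12.3, edgeR, Picard 1.90, SAMtools 0.1.19, Bowtie 1.0.0, cutadapt 1.0 and FastQC. The transposase shift and the handling of duplicates and mitochondrial reads are not given in the sources used here. For each peak the deposited lists hold the authors' score, a fold enrichment ratio, −log10 of a p-value and −log10 of a q-value. There was 1 list per library, and no read counts, so depth is unknown.

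Lists were cut at 22149 peaks, with ties ordered by chromosome name and start, and overlapping peaks were merged. NG2 was left out under a minimum of 1000 peaks. No test was run: the rule used presence and absence, and regions are not replicates. Intervals are 95% Wilson intervals and cover counting error only. Genes were 21883 protein-coding RefSeq genes of GRCm38.p6, and starts and sequences came from the RefSeq promoter table. Named were the 12 highest ranked regions at gene ends, 10 inside genes and 6 outside, by the percentile in the weaker normal-glucose library, every gene with 3 or more regions within 10 kb, and up to 20 list genes. Models lacking a proper symbol were skipped. An item selected by this rule is not reported here. Members, gene lists and motifs were chosen with earlier results of these data known. The scripts were tested on simulated data and used matplotlib 3.10.9, SciPy 1.17.1, pandas 2.3.3 and numpy 2.4.6 under Python 3.11.15. Alternatives were other list lengths and ranks, thresholds, overlaps, windows, left-out libraries and pairing.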

Additional observations from a re-analysis of the deposited data

How the results depend on the processing

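The number of normal-glucose-only regions, 608, was 1831 with full lists, 279 with the top 10000 peaks and 1346 with −log10 q of at least 5, and ranged from 990 to 3425 when a library was left out. The 359 high-glucose-only regions became 82 with full lists, 219 with the top 10000, 51 with −log10 q of at least 5 and 63 when no weaker peak of the other condition was allowed, and ranged from 833 to 1276 with a library left out. The 118 genes became 359 with full lists, 305 with −log10 q of at least 5, 43 with windows of 100 bp and 184 with windows of 2500 bp, and ranged from 198 to 668 with a library left out. The share at a gene end, 16.1%, was 25.4% with the top 10000, 20.1% with the top 15000 and with −log10 q of at least 5, 6.91% with windows of 100 bp and 23.7% with windows of 2500 bp, and ranged from 15.9% to 20.6% with a library left out. The cause of these changes was not tested. Pairing libraries by number, with HG1 and HG3 against NG1 and NG3 as a replicate block, gave 1088 normal-glucose-only regions, 828 high-glucose-only regions and 227 genes. HG2 has no partner and drops out there, and leaving out HG2 alone gave 1097, 833 and 234. The labels do not say that a number marks a shared culture or day.

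Which regions were called also changed. Of the 608, 8 were overlapped by a region called with the top 10000 peaks, 102 with the top 15000, 315 with −log10 q of at least 5, 519 with full lists and 518 when peaks were ranked by fold enrichment. Another order of ties, chosen after seeing the data, gave 602 regions that overlapped 590 of the 608. Without read counts, a site that fell just below the end of a library's full list cannot be told apart from a closed one.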

Other observations

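Mtmr9, a myotubularin-related gene, was the 1 gene with both kinds of region at an end. Its normal-glucose-only region (chr14:63543650-63543754) stood at percentile 60.9 in NG1 and 48.9 in NG3. Its high-glucose-only region (chr14:63543795-63544076) lay beside it, at percentiles 11.0 in HG1, 27.6 in HG2 and 31.8 in HG3. These regions are less than 200 bp apart, and merging peaks within 200 bp joins them into a region held by both conditions. Mapk12, a p38 kinase of muscle, had 2 normal-glucose-only regions inside or within 10 kb. The region chr15:89141033-89141252, at an end of Mapk12, stood at percentile 44.4 in NG1 and 61.3 in NG3. The region chr15:89123072-89123251 stood at 31.5 and 82.0. The latter lay outside Mapk12, covered a listed start of Tubgcp6 and was within 1 kb of an end of Hdac10. Cers2, a ceramide synthase, and the neighbouring Anxa9, an annexin, share both of theirs (chr3:95312615-95312847 and chr3:95315625-95315796), at percentiles 60.7 and 9.31 in NG1 and 50.5 and 55.4 in NG3. These genes were chosen after their values were seen.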
